A study of Mus musculus with 2 samples.

Results

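The 35 genes described here encode the machinery of the endoplasmic reticulum (ER) that folds newly made proteins, senses unfolded ones and removes those that fail to fold. They were chosen by symbol as ER folding factors, unfolded protein response (UPR) genes and genes of ER-associated degradation (ERAD), and 35 of 35 symbols were found among the 24054 genes of the deposited expression table. The rule names symbols and uses no measured value, but the genes were chosen with earlier results of these data known. Liver RNA came from male mice of 8 to 12 weeks, labelled C57BL/6 (the floxed line was made in C57BL/6N), either wild type (WT) or Pgrmc1 KO (Pgrmc1 -/Y). The KO was made by crossing mice with loxP sites around exons 1 and 2 of Pgrmc1 to Sox2-Cre mice, so that the gene was lost in the whole body and not in hepatocytes alone. Liver RNA of several animals, 2.5 μg from each, was combined into 1 pool per genotype, and a single library was made from each pool with a stranded total RNA kit. Differences between mice were therefore not measured, no difference given here has a replicate check, and no test between genotypes was possible.

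Membrane and secreted proteins enter the ER through the translocon and fold there with the help of HSP70-type and HSP90-type chaperones, lectin chaperones that read N-glycans, and disulfide isomerases. When unfolded proteins build up, the sensors IRE1 (gene Ern1), PERK (Eif2ak3) and ATF6 start the UPR, which raises the transcription of chaperone and ERAD genes. In ERAD, a misfolded protein is recognised, ubiquitinated at the ER membrane, pulled out by the ATPase VCP and degraded by the proteasome. Hepatocytes secrete large amounts of plasma protein, and the P450 enzymes studied in these mice are ER membrane proteins that can be degraded through this route, with the ubiquitin ligase STUB1 (CHIP) known to act on some of them. The study compared liver transcripts of KO and WT mice beside its measurements of P450 protein, and the comparison here gives the transcripts of the ER machinery in those livers.

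The level of Pgrmc1 followed the labels, at 0.68 TPM in the KO library and 949 TPM in the WT library. TPM is a gene's share of the transcript pool after correction for gene length, so levels of different genes can be compared on it. The second deposited table gave an estimated 22086692 reads on genes in KO and 29710419 in WT. The sampled tissue expressed hepatocyte markers strongly. Albumin (Alb), the main protein that hepatocytes secrete, was at 47242 TPM in KO against 49729 in WT. In bulk liver RNA, fewer cells of a type and less RNA per cell cannot be told apart.

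Transcripts of the ER machinery were lower in the KO library almost throughout. The 35 genes summed to 4729 TPM in KO against 5489 in WT, a ratio of 0.862, and took 0.470% of the transcript pool in KO and 0.552% in WT. The change of a gene is log2((KO + 1)/(WT + 1)) of its TPM values, which understates the difference at low levels, and folds are on the same scale. Of the 35 genes, 34 had a change below 0. The 34 genes averaging 1 TPM or more, which leaves out Atf3, had a median log2 change of -0.17, against -0.01 for all 11623 genes above that mean. Of these 34 genes, 33 lay below 0 (97.1%), where 53.8 percent of all genes did. A decrease of at least 1.2-fold (KO to WT at most 1/1.2) was found for 11 of the 34 (32.4%), against 5.51 percent of all genes, and an increase of at least 1.2-fold for 1, against 5.39 percent. The size criterion of the study was read here as a fold of 1.4 or more, or of 0.6 or less, and its additional criterion on the probability of differential expression was not applied. These thresholds were passed by Derl3 upward (1.21 percent of all genes passed upward) and by Ddit3 downward (0.301 percent). Both have low levels. With 1/1.4 as the threshold for lower genes, 5 of the 34 passed (Ddit3, Manf, Hspa5, Dnajb9 and Hyou1), against 1.02 percent of all genes. Among genes averaging 10 TPM or more, 10 of the set were lower by at least 1.2-fold, where 4.36 percent of all such genes were, and 0 were higher by that much (2.85 percent). At that level 0 passed the thresholds of 1.4 (0.994 percent) and 0.6 (0.273 percent), and 57.8 percent of all such genes lay below 0.

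**Figure D1:**
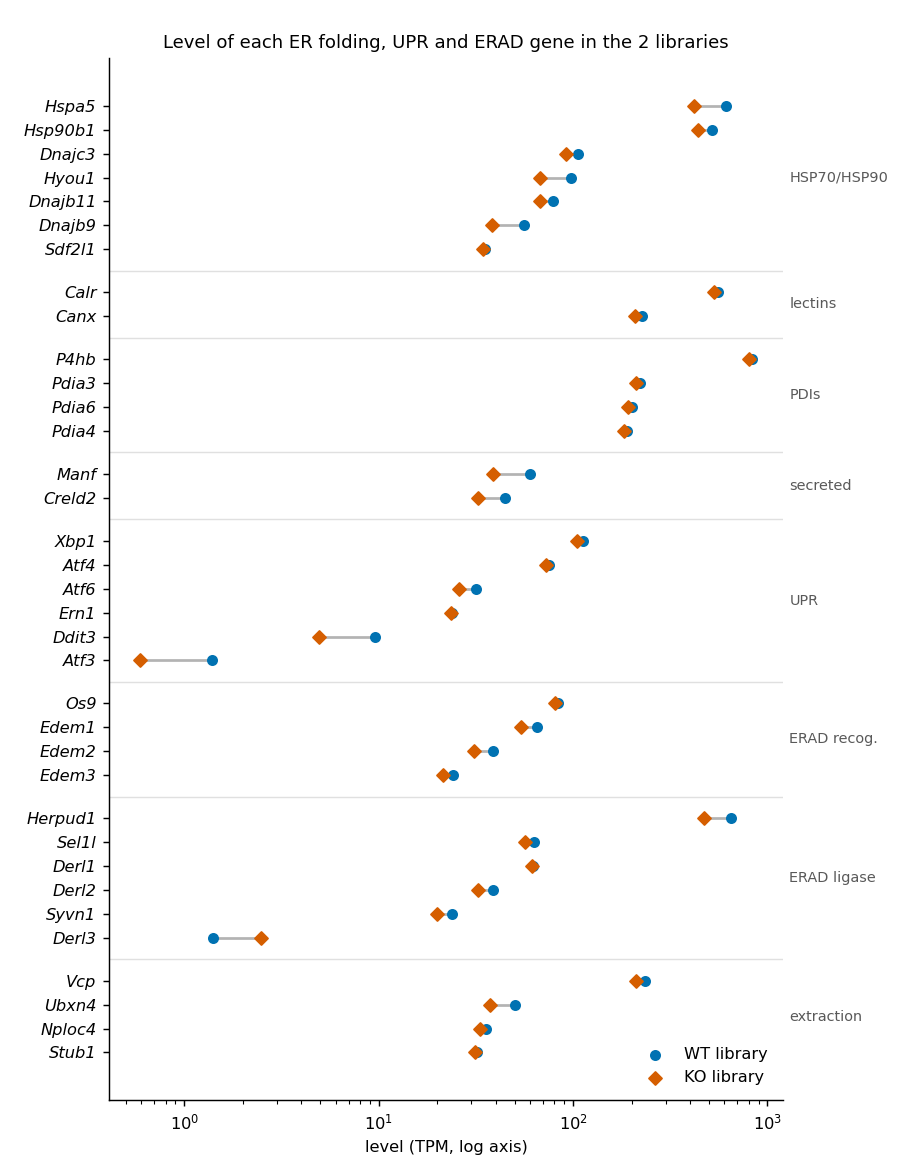
Level of each of the 35 genes in TPM (log axis) in the WT library (blue circles) and the KO library (orange diamonds), joined by a line and grouped by role. The KO point lies to the left of the WT point for 34 genes and to the right for Derl3, and each point is 1 pooled library.

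Counting error is given as the 95% Clopper-Pearson interval of the log2 ratio of the authors' mean read values of the 2 libraries, from estimated reads. These reads were rounded, and for most of the 35 genes they were not whole numbers before rounding. The interval covers neither differences between mice nor the sharing of reads between genes. This interval lay wholly below 0 for 26 of the 34 genes, against 13.4 percent of all genes in both tables. It lay above 0 for 1 gene, against 11.7 percent, and held 0 for 7. The interval narrows as reads increase, and shares at matched levels were not computed. In WT, 12 of the 35 genes were at 100 TPM or more and 20 at 10 to 100 TPM, so these shares compare genes of unlike level. Markers of the cell types in the liver were read beside these values. The summed level of 10 hepatocyte markers was 77644 TPM in KO against 81084 in WT, with 7 of 10 below 0 and a median log2 change of -0.08. The intervals of these abundant genes lay below 0 for 6 and above 0 for 4. None of the markers was listed at 0 in both libraries. The 10 Kupffer cell markers went the other way (376 and 334 TPM, 9 of 10 above 0, median 0.16), while 10 of 10 endothelial markers (225 and 245 TPM, median -0.09) and 8 of 10 stellate cell markers (252 and 287 TPM, median -0.18) lay below 0. Of 10 cholangiocyte markers, 5 averaged 1 TPM or more, and the 10 summed to 67.1 and 71.2 TPM. The part of cell composition in the lower ER transcripts was not tested.

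Among the lumenal chaperones, Hspa5 differed most. Hspa5 encodes BiP, the HSP70 chaperone of the ER lumen that also holds the UPR sensors inactive, and lies on chromosome 2 (34772090 to 34776529 of GRCm38, the mm10 assembly). Its level was 420.3 TPM in KO against 612 in WT, a fold of 0.687 and a log2 change of -0.54 (interval -0.56 to -0.50, on 14064 and 27405 estimated reads). Of the 11623 genes, 0.731 percent had a lower value. Transcripts of 2 proteins that work on BiP were lower by a similar amount. Dnajb9, which encodes the J-domain protein ERdj4 that brings unfolded clients to BiP, was at 38.4 TPM in KO against 55.9 in WT, for a log2 change of -0.53 (counting interval -0.64 to -0.41). Hyou1, whose product GRP170 releases nucleotide from BiP, was at 67.9 TPM in KO against 97.2 in WT, for a log2 change of -0.51 (counting interval -0.56 to -0.45). The J-domain genes Dnajb11 (67.4 and 79.2 TPM) and Dnajc3 (92.0 and 106 TPM) had smaller log2 changes of -0.23 and -0.20, and so did Hsp90b1, the gene of the ER HSP90 chaperone GRP94, with 441 TPM in KO, 517 TPM in WT and a log2 change of -0.23. Sdf2l1, whose product joins BiP and J-domain complexes, was at 34.4 TPM in KO against 35.2 in WT. Its interval of -0.19 to 0.16 held 0. The 7 genes together summed to 1161 TPM in KO against 1503 in WT, a ratio of 0.773.

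The glycoprotein and disulfide branches of folding stood closer to the WT level. Calr and Canx encode calreticulin and calnexin, the soluble and the membrane-bound lectin chaperone. Calr was at 530.2 TPM in KO against 559 in WT (log2 change -0.08), and Canx at 207 TPM in KO against 227 in WT (log2 change -0.13). The 4 disulfide isomerase genes had log2 changes between -0.07 for Pdia6 and -0.06 for Pdia4. P4hb, the gene of protein disulfide isomerase itself, was the most abundant of all 35 genes, at 799.7 TPM in KO against 833 in WT. Pdia3, which acts on glycoproteins together with the lectins, was at 210.5 and 219.96 TPM, Pdia4 at 182 and 189 TPM, and Pdia6 at 191 and 200.4 TPM. With 5252 or more estimated reads in each library, differences of this size lay near the limit of counting error, and the interval of Pdia4 held 0 (-0.09 to 0.01). The isomerases summed to 1383 TPM in KO against 1442 in WT, a ratio of 0.959.

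Both genes of small UPR-induced proteins were lower in KO by more than 1.2-fold. Manf encodes a secreted factor that binds BiP and is released on ER stress. It was at 38.6 TPM in KO against 59.7 in WT, a fold of 0.651 and a log2 change of -0.62 (interval -0.72 to -0.51). Creld2, which encodes an ER protein with isomerase activity, was at 32.4 TPM in KO against 44.9 in WT, for a log2 change of -0.46 (counting interval -0.61 to -0.30). Of all genes averaging 1 TPM or more, 0.465 percent had a lower value than Manf and 1.27 percent a lower value than Creld2.

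The sensors and transcription factors of the UPR ran from genes near the WT level to the scarce stress factors well below it. Ern1 was at 23.4 TPM in KO against 23.95 in WT, and Atf4, the transcription factor translated when PERK is active, at 72.9 and 75.04 TPM. The intervals of both held 0 (-0.13 to 0.09 for Ern1 and -0.13 to 0.07 for Atf4). Xbp1, whose mRNA is spliced by IRE1 to give an active transcription factor, was at 105 TPM in KO against 112 in WT, for a log2 change of -0.10 (counting interval -0.15 to -0.02). The tables hold values per gene, so spliced and unspliced Xbp1 were not separated. Atf6, the gene of the membrane-bound factor that is cut in the Golgi and then induces chaperones, was at 25.8 TPM in KO against 31.5 in WT, for a log2 change of -0.28 (counting interval -0.35 to -0.21). Ddit3 encodes CHOP, the factor tied to cell death under prolonged stress. It was at 4.91 TPM in KO against 9.60 in WT, a fold of 0.558 and a log2 change of -0.84, and its interval was wide (-1.51 to -0.49) because it rested on 46 and 123 estimated reads. Atf3, a stress-induced partner of these factors, was at 0.59 TPM in KO against 1.38 in WT, on 14 and 46 estimated reads. Its log2 ratio of means was -1.28 (interval -2.26 to -0.39), against -0.58 on the TPM scale with 1 added.

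The genes that recognise clients for ERAD were lower in KO to differing degrees. The Edem genes encode mannosidase-like proteins that mark misfolded glycoproteins by trimming. Edem2 was at 31.1 TPM in KO against 38.8 in WT (log2 change -0.31), Edem1 at 53.7 and 65.0 TPM (log2 change -0.27), and Edem3 at 21.3 and 24.2 TPM (log2 change -0.17). Os9, a lectin that hands trimmed clients to the ligase complex, was at 80.9 TPM in KO against 83.7 in WT, and its interval held 0 (-0.09 to 0.02).

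In the membrane complex that ubiquitinates ERAD clients, Herpud1 stood out by level and by change. Herpud1 (chromosome 8, 94386429 to 94395371 of GRCm38) encodes HERP, a membrane protein that organises the complex. It was at 471 TPM in KO against 646 in WT, a fold of 0.730 and a log2 change of -0.45 (interval -0.47 to -0.41). The ligase gene Syvn1 (HRD1) was at 19.99 TPM in KO against 23.7 in WT (log2 change -0.24), and Sel1l, its partner in the membrane, at 56.5 and 63.1 TPM (log2 change -0.16). The derlins are membrane proteins through which clients leave the ER. Derl2 was at 32.4 TPM in KO against 38.6 in WT (log2 change -0.24), while Derl1 was at 61.3 and 62.4 TPM, with an interval that held 0 (-0.09 to 0.06). Derl3 was the exception to the direction of the set, at 2.49 TPM in KO against 1.41 in WT, for a log2 change of 0.53 (counting interval 0.13 to 1.58, on 40 and 30 estimated reads). Derl3 is known from secretory cells such as plasma cells and pancreatic acinar cells. Of 10 plasma and B cell markers, 7 were under 1 TPM in both libraries and 3 of the 3 averaging 1 TPM or more lay above 0, among them Igj, the joining chain of secreted antibodies, named after its values were seen, at 1.62 TPM in KO against 0.88 in WT. The 10 markers summed to 116 TPM in KO against 105 in WT, nearly all from Sdc1, which hepatocytes also express. Of 10 pancreatic acinar markers, 9 were under 1 TPM in both libraries, and the 10 summed to 15.4 TPM in each. The part of such cells in the value of Derl3 was not tested.

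Of the genes for extraction and cytosolic ubiquitination, 4 of 4 had a log2 change below 0 and 1 passed 1.2-fold. Vcp encodes the ATPase that pulls ubiquitinated clients out of the membrane. It was at 212 TPM in KO against 235 in WT, for a log2 change of -0.15 (counting interval -0.18 to -0.10), but 34.2% of its 100-base transcript windows also occur in the copy Vcp-rs, so that its reads are uncertain. Its cofactor Nploc4 was at 33.1 and 35.8 TPM (log2 change -0.11). Ubxn4, which encodes the ER membrane protein erasin that recruits VCP, differed most in this group, at 37.2 TPM in KO against 50.5 in WT, for a log2 change of -0.43 (counting interval -0.51 to -0.35). Stub1, the gene of the cytosolic ligase CHIP, was at 31.3 TPM in KO against 32.2 in WT, and its interval of -0.17 to 0.12 held 0. Over all 14 ERAD genes the summed level was 1144 TPM in KO against 1399.9 in WT, a ratio of 0.817, and Herpud1 made up much of this sum.

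**Figure D2:**
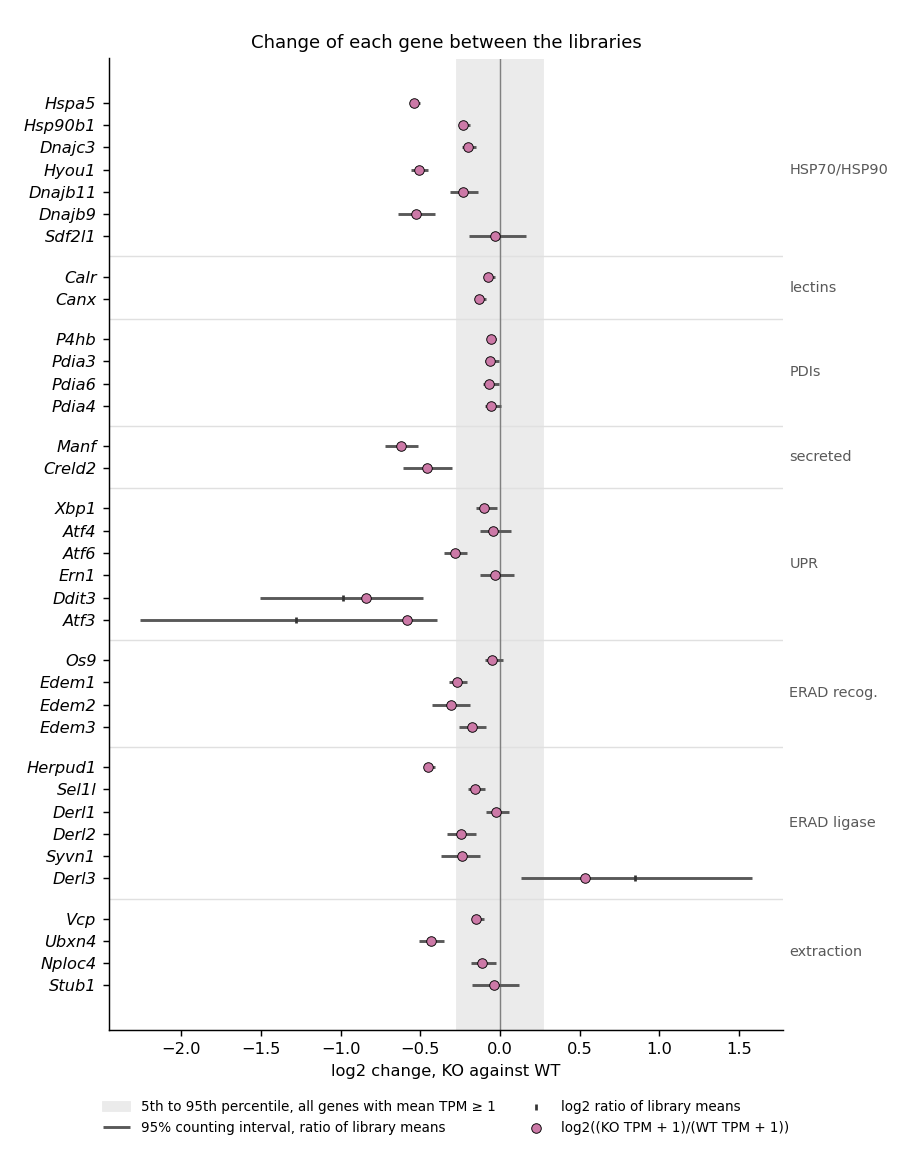
Change of each of the 35 genes between the KO and the WT library, in log2 units, as TPM with 1 added (pink points) and as the ratio of the authors' library means (ticks) with its 95% counting interval (bars). The grey band runs from the 5th to the 95th percentile of genes averaging 1 TPM or more (-0.27 to 0.27), and the points of Ddit3, Manf, Atf3, Hspa5, Dnajb9, Hyou1, Creld2, Herpud1, Ubxn4, Edem2 and Atf6 lie to the left of it.

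Other genes of the pathway were taken from lists written from general knowledge, with earlier results of these data known. Of 143 genes, 142 were found and 137 averaged 1 TPM or more. Among these 137, 104 lay below 0 (75.9%, against 53.8 percent of all genes) and the median log2 change was -0.10. A decrease of at least 1.2-fold was found for 21 of them (15.3%, against 5.51 percent of all genes) and an increase for 1 (5.39 percent). The thresholds of 1.4 and 0.6 were passed by 0 of them (1.21 and 0.301 percent of all genes). The 33 other chaperones and folding enzymes had a median of -0.11 and 30 lay below 0 (90.9%). They ran from Hspa13, a further HSP70-type protein of the ER (17.8 TPM in KO against 27.7 in WT, log2 change -0.62), to Pdia5, a disulfide isomerase (37.8 and 34.7 TPM, 0.12). The scarce isomerase genes Fkbp7 and Fkbp14 had log2 changes of -0.46 and -0.37, and the interval of Fkbp7 held 0.

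The 19 other UPR genes had a median log2 change of -0.16, with 14 below 0 (73.7%, against 53.8 percent of all genes). Eif2ak3, the gene of PERK, was at 8.54 TPM in KO against 11.4 in WT, for a log2 change of -0.37 (counting interval -0.56 to -0.25). The lowest, Nupr1, a stress-induced nuclear protein, rested on 8 and 22 estimated reads and its interval held 0, while Sesn2, the highest, had a log2 change of 0.09 with an interval that also held 0. The 54 other ERAD genes were spread about the value of all genes, with a median of -0.04 and 32 below 0 (59.3%). The lowest was Vimp (49.3 TPM in KO against 67.9 in WT, log2 change -0.45), which encodes selenoprotein S, a membrane partner of VCP and the derlins. The membrane ligase gene Rnf5 (24.6 and 32.3 TPM) and the ubiquitin-conjugating enzyme gene Ube2j2 (3.75 and 5.07 TPM) had log2 changes of -0.38 and -0.35. The highest, Atxn3, a deubiquitinase that binds VCP, had a log2 change of 0.26 in TPM and an interval of -0.03 to 0.24 in the authors' means.

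The genes of protein entry into the ER had a median log2 change of -0.18 over 31 genes. Of these, 28 lay below 0 (90.3%, against 53.8 percent of all genes). Srprb, a subunit of the receptor that docks ribosomes at the ER, was lowest, at 9.08 TPM in KO against 13.1 in WT (log2 change -0.49). The signal peptidase subunits Spcs2 (31.6 and 41.1 TPM) and Spcs3 (36.7 and 47.2 TPM) had log2 changes of -0.37 and -0.35, and Ostc, a subunit of the N-glycosylating transferase, -0.37. Sec61a2, a second form of the translocon channel, was highest at 0.17, with an interval that held 0.

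**Figure D3:**
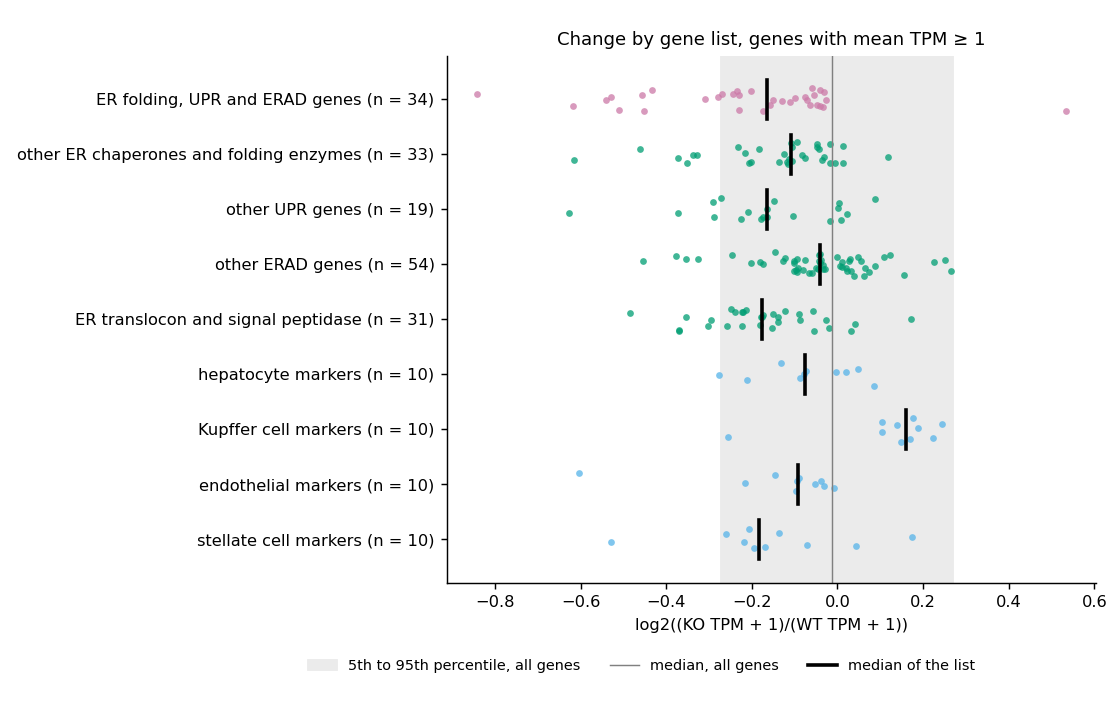
Log2 change of every gene averaging 1 TPM or more in the 35-gene set (34 genes), 4 lists of other ER pathway genes and 4 lists of cell type markers, with the median of each list as a black bar. The grey line is the median of all genes (-0.01) and the band their 5th to 95th percentile, and the Kupffer cell list is the one list with a median above 0.

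The promoters of the set were read for sequences that UPR transcription factors are known to bind. The ER stress element (ERSE) is bound by ATF6 and by spliced XBP1 together with the CCAAT-binding factor NF-Y, and the shorter ERSE-II by the same factors. RefSeq promoter windows of GRCm38.p6, from 250 bases before to 50 bases after a start site, were found for 31 of the 35 genes, and none was in the table for Hyou1, Manf, Atf6 and Derl1. The exact ERSE, which is CCAAT, then any 9 bases, then CCACG, read on either strand, occurs in 0.119% of the 32851 windows. It was found in 9 of the 31 genes (29.0%). The exact ERSE-II, which is ATTGG, then any 1 base, then CCACG, read on either strand, occurs in 0.0365% of windows and was found in Dnajb11 and Herpud1 (6.45%). Both elements contain the letters CCAAT and CCACG on one strand or the other. The set holds many textbook UPR targets, so a high share with these elements came with its choice, and a match describes the letters of the window only. The windows of Hspa5, Creld2 and Herpud1 are shown because these 3 genes were lower in KO by at least 1.2-fold, and that of Derl3 because it was higher. Each line gives the 250 bases before the start site, from 5′ to 3′ on the strand of the gene, with the fixed letters of ERSE or ERSE-II in capitals. They lie at chr2:34771840-34772089 for Hspa5, chr15:88819396-88819645 for Creld2, chr8:94386179-94386428 for Herpud1 and chr10:75893148-75893397 for Derl3, all on the plus strand.
Hspa5: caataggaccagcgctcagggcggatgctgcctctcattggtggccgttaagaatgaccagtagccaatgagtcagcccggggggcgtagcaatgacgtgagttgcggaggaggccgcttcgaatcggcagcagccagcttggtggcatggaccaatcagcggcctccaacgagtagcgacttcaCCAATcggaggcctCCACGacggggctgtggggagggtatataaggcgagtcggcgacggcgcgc
Creld2: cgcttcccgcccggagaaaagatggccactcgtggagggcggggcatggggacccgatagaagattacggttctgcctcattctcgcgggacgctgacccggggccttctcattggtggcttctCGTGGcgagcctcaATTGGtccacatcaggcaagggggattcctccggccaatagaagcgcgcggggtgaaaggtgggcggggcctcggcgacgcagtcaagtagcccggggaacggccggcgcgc
Herpud1: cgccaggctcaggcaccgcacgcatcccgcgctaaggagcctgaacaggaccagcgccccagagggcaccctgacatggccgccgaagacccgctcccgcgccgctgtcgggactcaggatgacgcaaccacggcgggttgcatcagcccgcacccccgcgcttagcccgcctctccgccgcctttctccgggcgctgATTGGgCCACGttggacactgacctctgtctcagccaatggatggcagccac
Derl3: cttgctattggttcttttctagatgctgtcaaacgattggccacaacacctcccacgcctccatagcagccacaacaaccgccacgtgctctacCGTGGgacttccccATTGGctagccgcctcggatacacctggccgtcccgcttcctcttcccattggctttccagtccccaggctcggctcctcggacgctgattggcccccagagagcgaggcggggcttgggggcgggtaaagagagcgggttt

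The matches in the other genes are shown to compare the variable bases between the fixed ends, written as they lie on the strand of the gene, with the fixed letters in capitals. Hsp90b1 holds 2 copies. The match in Dnajb11 starts after the start site of the window, and the others lie before it.
Hsp90b1, first copy: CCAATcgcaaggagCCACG
Hsp90b1, second copy: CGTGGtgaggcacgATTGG
Dnajb11: ATTGGcCCACG
Dnajc3: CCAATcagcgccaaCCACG
Calr: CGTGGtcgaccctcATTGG
Canx: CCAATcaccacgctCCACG
Pdia6: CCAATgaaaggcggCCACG
Syvn1: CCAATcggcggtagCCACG

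Genes with such an element did not share one size of change. Among all genes, 53.8 percent lay below 0 and 5.51 percent were lower by at least 1.2-fold. The 11 genes with ERSE or ERSE-II had a median log2 change of -0.23, with 10 below 0 and 3 lower by at least 1.2-fold. They ran from -0.54 for Hspa5 to 0.53 for Derl3. The 19 genes with a window, neither element and an average of 1 TPM or more had a median of -0.11, with 19 below 0 and 5 lower by at least 1.2-fold, among them Dnajb9 and Ubxn4. These ran from -0.84 for Ddit3 to -0.03 for Ern1, so the ranges of the 2 groups overlapped. The 4 genes without a window had a median of -0.40. Within the ERSE group, Pdia6 (-0.07), Calr (-0.08) and Canx (-0.13) stood near the WT level, and Syvn1 (-0.24), Hsp90b1 (-0.23) and Dnajc3 (-0.20) further below it. Other elements were rarer in the set. The letters TGACGTGG, the core of the UPR element, which end in CCACG read on the other strand, were found in Vcp only (1 of 31 genes, against 0.676% of windows). The cyclic AMP response element TGACGTCA (1.79% of windows) was found in 0 of 31 genes. TGATGNAAT (0.965% of windows), an exact form of the pattern bound by ATF4 with C/EBP factors, was also found in 0 of 31 genes. At such shares of windows, few matches would be found among 31 genes. The last base of TGATGNAAT was fixed as T, so forms that end in another base were not counted. Read on the other strand, the Herpud1 window shown above matches TGATGNAAT in every letter but the last. The count for TGATGNAAT therefore does not show that the set lacks sites for ATF4. Only exact letters inside the windows were read, so variant or more distant sites of any element were not counted.

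**Figure D4:**
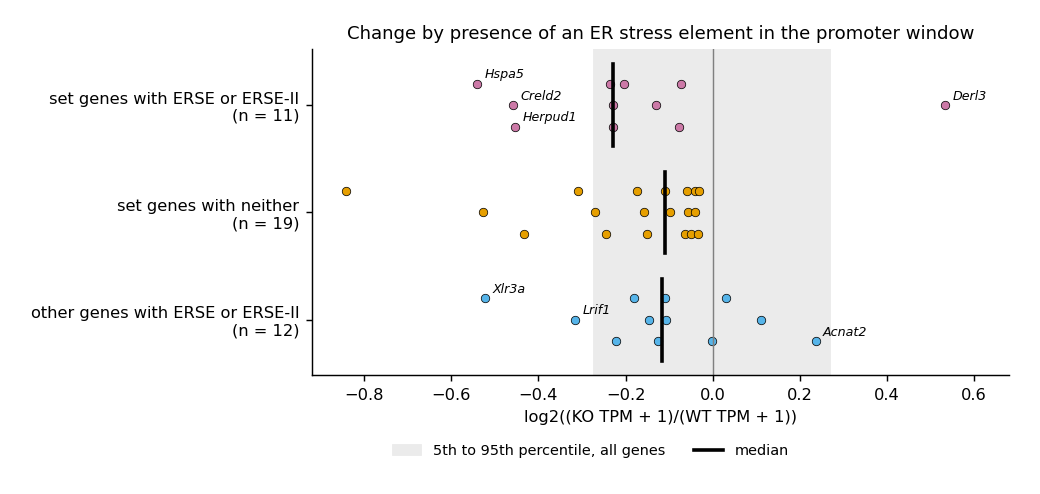
Log2 change by presence of an exact ERSE or ERSE-II in the RefSeq promoter window, for 11 genes of the set with an element, 19 with neither and 12 other genes with an element, all averaging 1 TPM or more; black bars are medians (-0.23, -0.11 and -0.12). The groups overlap, and Derl3 is the one gene with an element that lies above the 95th percentile of all genes.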

How the data were processed

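Liver RNA was pooled by genotype and sequenced as 1 stranded total RNA library each. The submitters' processing notes name CASAVA 1.8.2, RSEM 1.2.09, Bowtie and the build mm10. The authors deposited posterior mean TPM per gene, rescaled between libraries: the KO column adds up to 1005325 and the WT column to 994702. A second deposited table, with the column names that EBSeq writes, holds a mean per library (a signal, here taken as estimated reads over a scaling factor) for 16318 genes. Its columns were assigned to genotypes by the order in the name of the comparison, KO first. Its 4 columns of the authors' own comparison (fold changes and posterior probabilities) were not used.

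The log2 change of each gene used a pseudocount of 1 TPM, and genes averaging 1 TPM or more formed the background. The most frequent low value of the authors' means was taken as 1 read. On that scale 78.4% of values in KO and 74.998% in WT were whole numbers to within 0.02, but among the 35 members only 13 values in KO and 10 in WT were. Reads were rounded for the counting intervals. Whole reads were thus not recovered throughout, and count models were not used. A single library per genotype allows no p-value. Intervals are Clopper-Pearson intervals at 95% and cover counting error only.

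The members and gene lists were chosen with earlier results of these data known. Every member is given. Of the other pathway genes, the 12 largest changes past 1.2-fold and the highest and lowest of each list are named, and a gene outside that rule is said to have been chosen after its values were seen. Marker lists are given by their sums and counts. One gene of the lists is counted but not reported here by name. Coordinates and promoter windows are those of RefSeq on GRCm38.p6 (mm10). Transcript windows of 100 bases shared between genes were counted in GENCODE. Calls and intervals were tried on simulated libraries of whole, randomly drawn reads. These hold no differences between mice and no sharing of reads, so they do not test the intervals on estimated reads that are not whole. The software was Python 3.11.15 with pandas 2.3.3, numpy 2.4.6, matplotlib 3.10.9 and scipy 1.17.1. Alternatives were 0.1 TPM as pseudocount, a minimum of 10 TPM or none, use of the authors' means, subtraction of the median gene's change, rescaling after the 50 most abundant genes were removed, other fold thresholds, and sums without the most abundant member.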

Additional observations from a re-analysis of the deposited data

How the results depend on the processing

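No paired analysis was possible because only 1 library was made from each genotype. For the same reason no replicate could be left out. The change of each of the 35 genes was recomputed under 4 alternatives (0.1 TPM added in place of 1, centring on the median gene, use of the authors' means, and rescaling without the 50 most abundant genes). All 140 values kept their sign, and each moved by less than 0.5 times the width of the gene's counting interval. A change of pseudocount cannot alter the sign of a gene's change. Rescaling moved the median of all genes only from -0.0132 to -0.0131, so these alternatives say little about signs. The largest shift was 0.65, for Atf3 with the authors' means. For all genes the median was -0.01 as reported and -0.0033 with the authors' means, so these scalings differ little. The median of the set ran from -0.17 with no filter to -0.15 after centring, and 78 medians of the set, its roles and the other lists kept their sign.

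With a minimum of 10 TPM, which leaves out Derl3 and Ddit3, the counts past 1.4 upward, 0.6 downward and 1.2 upward were 0, 0 and 0. Fold thresholds of 2 and 0.5 gave 0 and 0, and 1/1.4 as the threshold for falls gave 5 genes down, against 1.02 percent of all genes. The log2 ratio of the summed TPM of the 35 genes went from -0.22 to -0.20 with the authors' means (-0.198), to -0.202 after centring and to -0.245 without P4hb. With the authors' means, the sums of the lumenal chaperones and of the ligase complex had log2 ratios of -0.35 and -0.31. Without their most abundant gene, the log2 ratios of the sums were -0.27 for the lumenal chaperones, -0.13 for the lectins, -0.47 for the secreted factors, -0.27 for ERAD recognition, -0.13 for the ligase complex (without Herpud1) and -0.22 for the extraction genes. Low counts leave wide intervals for Atf3, Ddit3 and Derl3, and the spread between mice was not measured for any gene.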

Other observations

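Outside the set, 12 genes averaging 1 TPM or more hold an exact ERSE or ERSE-II in a promoter window. They were found by the element, not by their values. Windows were read on either strand, and whether any of these sites is also the site of a neighbouring gene of the set was not checked. Their median log2 change was -0.12, and 9 of the 12 lay below 0, where 53.8 percent of all genes did. Of the 12, 2 were lower in KO by at least 1.2-fold, against 5.51 percent of all genes. These were Xlr3a (4.22 TPM in KO and 6.50 TPM in WT, log2 change -0.52), a gene of a multicopy family whose sharing of reads was not counted, and Lrif1 (5.67 and 7.30 TPM, -0.32). Genes with known work in the ER were Krtcap2, a subunit of the N-glycosylating transferase (81.8 TPM in KO and 95.5 TPM in WT, log2 change -0.22), and Alg12, a mannosyltransferase that builds the N-glycan (5.39 and 6.07 TPM, -0.15). The highest was Acnat2, an acyl-CoA amino acid transferase (12.4 and 10.4 TPM, 0.24). The 5 letters CCAAT alone, in 37.4% of windows, and CCACG alone, in 32.8%, went with medians of -0.01 and -0.01 over 3765 and 4511 genes.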
